A study of Rattus norvegicus with 12 samples.

Results

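Untreated hepatic progenitor cells labelled Tnfrsf1α-/- were set against untreated hepatic progenitor cells labelled Tnfrsf1β-/-. There were 2 RNA-seq libraries on each side, 4 of the 12 in the series. Hepatic progenitor cells are immature liver cells with the capacity to become hepatocytes or bile duct epithelium. Here they were rat cells with an age of gestation day 13.5 on the label, and no library compared here received tumour necrosis factor alpha (TNFα). The other groups of the series are wild type, and each of the 3 genotypes with TNFα for 1 hour, also with 2 libraries each. The labels give neither the strain background nor how the alleles were made, so nothing is known here of other alleles that both sides may carry. Nothing in the labels says that libraries of a group came from separate animals or cultures, so the p-values below rest on the spread between 2 libraries of a label, and that spread may be technical only.

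The values are levels on the log2(FPKM + 1) scale, where FPKM is mapped fragments scaled by transcript length and by library total, and a difference is the mean level under the Tnfrsf1α-/- label minus the mean level under the Tnfrsf1β-/- label. This scale understates the change of low genes. A gene line entered when its mean over the 4 libraries was at least 1 FPKM, which kept 11315 of 22384 lines with a gene symbol. That choice does not use the contrast, but a gene can pass it through its level under 1 label alone. A level of 1 is 1 FPKM. Examples named below are Il10, Il24 and Cxcl11, with mean levels of 0.77, 0.94 and 0.95 under Tnfrsf1β-/-. Egr3, with a mean level of 0.88 under Tnfrsf1α-/-, is another. Such genes entered only because they were higher under the other label, so their calls carry that limit. No read counts came with the values, so the depth behind each one is unknown.

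TNFα acts through a pair of receptors. TNFR1, the product of Tnfrsf1a, is present on most cell types and carries a death domain that binds TRADD, from which NF-kB, MAP kinases or cell death can be switched on. TNFR2, the product of Tnfrsf1b, has no death domain, binds TRAF2 directly and answers best to membrane-bound TNFα. In liver, TNFα is known for its part in the priming phase of regeneration and in the expansion of progenitors. The title of the study joins TNFR2 to hnRNPK, an RNA- and DNA-binding protein, and to YAP, a co-activator that drives genes through the TEAD transcription factors.

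The labels were first set against the genes they name. Tnfrsf1a was at 5.94 and 6.13 under the Tnfrsf1α-/- label, against 5.83 and 5.80 under the Tnfrsf1β-/- label, a difference of 0.22 (SE 0.09, limma adjusted p = 0.0919). Its level was thus no lower where the label names its loss, and a deletion that leaves most of the transcript in place would not show in a value per gene. Tnfrsf1b was at 0.03 and 0.00 under Tnfrsf1α-/- against 0.00 and 0.00 under Tnfrsf1β-/-, below the filter on both sides, so it checks neither label. Tnf itself was at 0.90 and 0.71 under Tnfrsf1α-/- against 0.51 and 0.38 under Tnfrsf1β-/-, also below the filter. Every direction below therefore rests on the label alone, and a genotype named beside a value is the library's label.

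The labelled cell type was compared with marker lists. Of 25 markers of hepatic progenitors and cholangiocytes, 3 passed the filter, and 7, among them Afp, Dlk1, Epcam and Spp1, were listed at 0 in all 4 libraries. A 0 in values without read counts can be a failed estimate, and Med22, a subunit of the general Mediator complex, was also listed at 0 in both libraries labelled Tnfrsf1β-/-. The keratins Krt8 and Krt7 were well above the filter and their partners Krt18 and Krt19 below it, with Krt18 at 0.00 and 0.14 under Tnfrsf1α-/- against 0.04 and 0.06 under Tnfrsf1β-/-. Krt8 was at 7.86 and 7.95 under the Tnfrsf1α-/- label and 7.44 and 7.45 under the Tnfrsf1β-/- label (difference 0.46, limma adjusted p = 0.00586). Of 31 hepatocyte markers 6 passed the filter, with Alb and Hnf4a listed at 0 in every library and a summed level of 67.36 and 67.38 FPKM under Tnfrsf1α-/- against 67.61 and 67.69 FPKM under Tnfrsf1β-/-. Of 26 mesenchymal markers 12 passed the filter and 6, among them Thy1 and Prrx1, were listed at 0 in all 4 libraries. The mesenchymal markers summed to 5702 and 6384 FPKM under Tnfrsf1α-/- against 6115 and 5867 FPKM under Tnfrsf1β-/-. The mesothelial list summed to 3570 and 3953 FPKM under Tnfrsf1α-/- against 3652 and 3522 FPKM under Tnfrsf1β-/-. Leukocyte markers summed to 38.12 and 39.09 FPKM under Tnfrsf1α-/- against 27.61 and 25.99 FPKM under Tnfrsf1β-/-, and Cd14 was the 1 tested member, while 14 including Ptprc were listed at 0 in all 4 libraries. Most markers of the labelled cell type were thus at or near 0 in these values, while the summed level was high for parts of the mesenchymal and mesothelial lists. In bulk RNA, fewer cells of a type and less RNA per cell cannot be told apart.

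Libraries of the same label lay closer to each other than libraries of different labels. Spearman's rank correlation across genes was 0.991 between the 2 libraries labelled Tnfrsf1α-/- and 0.995 between the 2 labelled Tnfrsf1β-/-, against 0.969 to 0.977 for the 4 pairs across labels. More than 1 log2 unit separated 35 genes within the Tnfrsf1α-/- label and 29 within the Tnfrsf1β-/- label, and 148 to 213 genes in the pairs across labels. The summed FPKM was 469055 and 472935 under the Tnfrsf1α-/- label, against 453243 and 447554 under the Tnfrsf1β-/- label. Ribosomal protein genes held 9.98% and 10.4% of it under Tnfrsf1α-/- against 9.38% and 9.05% under Tnfrsf1β-/-. Their part in the results was not tested.

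At a limma adjusted p under 0.05, 3493 of the 11315 tested genes were called, 30.9% of them, with 1784 higher (15.8%) and 1709 lower (15.1%) under the Tnfrsf1α-/- label. The median difference over all tested genes was 0.013, and the range was -2.34 to 4.40. Most changes were small, and 133 genes (1.18%) were both called and at least 2-fold apart on this scale, 93 higher (0.822%) and 40 lower (0.354%). The libraries of the 2 labels did not overlap for 7960 genes, 70.3% of those tested, and for each of the 3493 called, so that non-overlap of a called gene adds nothing to its call. The call count rests on how the spread was estimated. With all 12 libraries in the fit, whose treated Tnfrsf1α-/- pair differs widely, 6 genes were called. With that pair left out, 66 were called over 10 libraries, 49 higher and 17 lower. No list below had more than 4 calls in the 10-library fit, and the counts below come from the 4 libraries compared. Leaving out the first or the second Tnfrsf1β-/- library left 1824 and 1959 calls, and leaving out the first or the second Tnfrsf1α-/- library left 3277 and 4825.

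**Figure D1:**
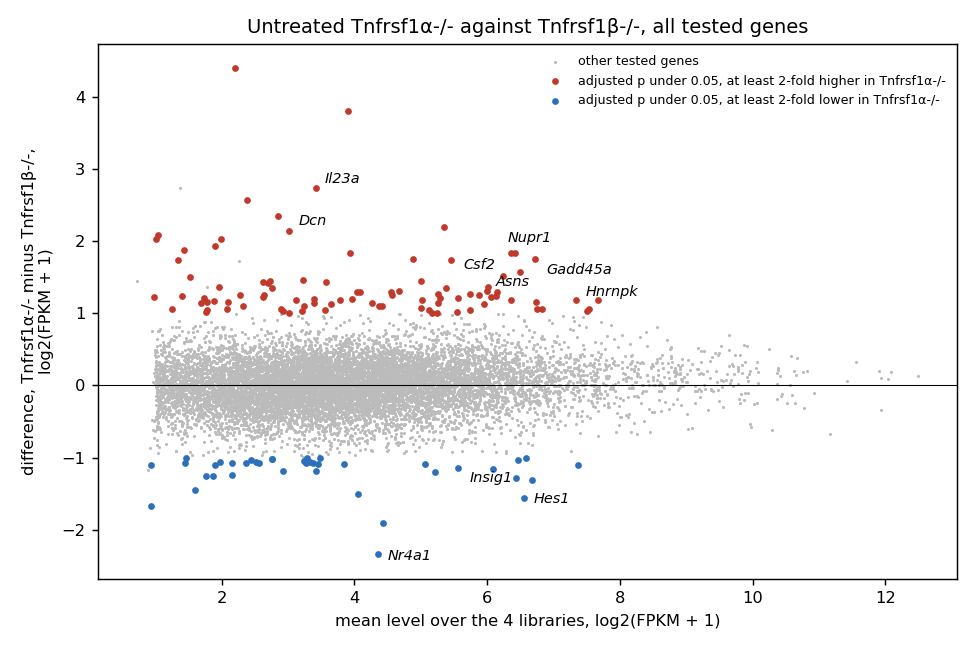
Mean level over the 4 libraries (x axis, log2(FPKM + 1)) against the difference, Tnfrsf1α-/- minus Tnfrsf1β-/- (y axis, log2), with 1 point per tested gene and genes both called and at least 2-fold apart coloured by direction. Il23a at 2.73 stands highest among the labelled genes and Nr4a1 at -2.34 lowest, while most called genes lie within 1 log2 unit of 0.

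Hnrnpk, the gene of the RNA-binding protein in the study's title, was at 8.03 and 7.84 under the Tnfrsf1α-/- label, against 6.72 and 6.77 under the Tnfrsf1β-/- label. Both libraries of the Tnfrsf1α-/- label were above both of the other, as holds for every gene called higher. The mean difference was 1.19 (SE 0.09, limma adjusted p = 0.000604). In FPKM the same levels were 261 and 228 under Tnfrsf1α-/- against 105 and 108 under Tnfrsf1β-/-. The call did not hold when the 10 libraries were fitted together, where its limma adjusted p was 0.221. Its family, the hnRNP and poly(C)-binding genes, had a share of calls near the 30.9% of all tested genes. Of 22 hnRNP and poly(C)-binding family genes tested, 5 were called higher and 2 lower, with a median difference of 0.16, and the count of higher calls ran from 3 without the second Tnfrsf1β-/- library to 10 without the second Tnfrsf1α-/- library, while both lower calls were lost without either Tnfrsf1β-/- library. Hnrnph1, a splicing regulator, was at 5.53 and 7.37 under Tnfrsf1α-/- against 4.22 and 4.28 under Tnfrsf1β-/-, so the 2 libraries labelled Tnfrsf1α-/- were further apart than the nearer one was from the other label (difference 2.20, SE 0.50, limma adjusted p = 0.0184). Hnrnpc, which binds uridine tracts in nascent transcripts, rose by 0.50.

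YAP and its targets were set beside it. Yap1 was at 5.998 and 6.13 under the Tnfrsf1α-/- label, against 5.94 and 6.07 under the Tnfrsf1β-/- label, and the libraries overlapped (difference 0.06, limma adjusted p = 0.636). Wwtr1, which encodes the related co-activator TAZ, was at 5.47 and 5.67 under Tnfrsf1α-/- against 5.81 and 5.83 under Tnfrsf1β-/-, without overlap but short of the threshold (difference -0.25, limma adjusted p = 0.069). Of 28 tested YAP and TAZ target genes 13 fell and 3 rose, with a median difference of -0.25. The shares over all tested genes were 15.1% lower and 15.8% higher. Among those that fell, Ankrd1, a cardiac and muscle ankyrin repeat protein, was at 1.62 and 1.65 under Tnfrsf1α-/- against 2.69 and 2.43 under Tnfrsf1β-/- (difference -0.93). Cyr61, a secreted matricellular protein, was at 8.72 and 8.86 under Tnfrsf1α-/- against 9.42 and 9.36 under Tnfrsf1β-/- (difference -0.59). Thbs1, which encodes thrombospondin 1, differed by -0.65. Ctgf, the target most often used as a readout of YAP, was at 8.17 and 8.17 under Tnfrsf1α-/- against 8.19 and 8.24 under Tnfrsf1β-/- and was not called. Areg, an EGF receptor ligand, rose, at 5.58 and 5.53 under Tnfrsf1α-/- against 4.83 and 4.82 under Tnfrsf1β-/- (difference 0.73). Without either Tnfrsf1β-/- library in turn the lower calls on this list were 7 each, and without the first or the second Tnfrsf1α-/- library 14 and 15, and 1 of the 3 higher calls was left without the second Tnfrsf1β-/- library.

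Of 25 tested genes of the Hippo cascade and its TEAD partners, 7 fell and 4 rose, around a median of -0.05. Over all tested genes 15.1% were called lower and 15.8% higher. Tead1, a transcription factor that YAP binds, was at 5.30 and 5.19 under Tnfrsf1α-/- against 5.82 and 5.83 under Tnfrsf1β-/-, a difference of -0.58. Wwc2, an upstream regulator of the LATS kinases, rose by 0.53. Lower calls on this list were 3 without either Tnfrsf1β-/- library, 4 without the first Tnfrsf1α-/- library and 8 without the second, and higher calls were 1 and 2 without the first or the second Tnfrsf1β-/- library.

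Most genes on a list of unfolded protein response and ATF4 targets rose, but 4 endoplasmic reticulum proteins on it fell. The unfolded protein response is set off by misfolded protein in the endoplasmic reticulum. Its ATF4 arm, shared with amino acid shortage, drives amino acid synthesis and transport, tRNA charging and, when prolonged, death-associated genes. Of 31 tested members 21 rose and 4 fell under the Tnfrsf1α-/- label, with a median difference of 0.62 against 0.013 over all genes. Nupr1, a small chromatin protein induced by stress, was at 7.35 and 7.33 under Tnfrsf1α-/- against 5.55 and 5.46 under Tnfrsf1β-/-, a difference of 1.84 (SE 0.07, limma adjusted p = 6.64e-05). Asns, asparagine synthetase, was at 6.72 and 6.58 under Tnfrsf1α-/- against 5.33 and 5.36 under Tnfrsf1β-/- (difference 1.31, limma adjusted p = 0.000348). Trib3, a pseudokinase that feeds back on ATF4, was at 6.74 and 6.77 under Tnfrsf1α-/- against 5.49 and 5.52 under Tnfrsf1β-/- (difference 1.25, limma adjusted p = 0.000317). In each of these genes the 2 libraries of a label lay close together and more than 1 log2 unit from the other label.

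Genes of amino acid supply were among those that rose. Slc7a11, the cystine importer, was at 4.41 and 4.18 under Tnfrsf1α-/- against 2.83 and 2.89 under Tnfrsf1β-/- (difference 1.43, limma adjusted p = 0.000599). Its partner chain Slc3a2 rose by 0.95, and the leucine transporter Slc7a5 by 0.90. The serine pathway enzymes Psph and Mthfd2, the second in mitochondrial folate metabolism, rose by 0.79 and 0.76. The transcription factors also rose: Atf5 was at 7.26 and 7.38 under Tnfrsf1α-/- against 6.13 and 6.20 under Tnfrsf1β-/- (difference 1.16), and Ddit3, which encodes the death-associated factor CHOP, was at 6.25 and 6.29 under Tnfrsf1α-/- against 5.11 and 5.33 under Tnfrsf1β-/- (difference 1.05). Ddit4, an inhibitor of mTORC1 signalling, was at 4.83 and 4.86 under Tnfrsf1α-/- against 3.66 and 3.72 under Tnfrsf1β-/- (difference 1.15). Chac1, which breaks down glutathione, was at 5.83 and 6.09 under Tnfrsf1α-/- against 5.02 and 4.96 under Tnfrsf1β-/- (difference 0.97). Sesn2, a leucine-sensing regulator of mTORC1, rose by 0.73.

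Other members of the list had smaller differences or fell. Hspa5, the chaperone BiP, was at 9.57 and 9.50 under Tnfrsf1α-/- against 9.19 and 9.20 under Tnfrsf1β-/- (difference 0.34), and Atf4 itself at 8.26 and 8.22 under Tnfrsf1α-/- against 7.98 and 7.995 under Tnfrsf1β-/- (difference 0.26). Both calls were lost without either Tnfrsf1β-/- library, with limma adjusted p = 0.183 and 0.331 without the first. The 4 members that fell, chosen after their values were seen, were the endoplasmic reticulum proteins Sdf2l1 (-0.55), Creld2 (-0.50), Manf (-0.48) and Calr (-0.24). Of these Manf alone kept its call with each of the 4 libraries left out, and 2 members of the list were called lower without the first Tnfrsf1β-/- library. Pdia4, a disulfide isomerase, was not called.

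Cytosolic aminoacyl-tRNA synthetases, which load amino acids onto tRNAs, rose alongside. Of 20 tested 16 rose and none fell, with a median difference of 0.64. Eprs, which charges both glutamate and proline tRNAs, was at 8.14 and 7.998 under Tnfrsf1α-/- against 6.97 and 7.06 under Tnfrsf1β-/- (difference 1.06, limma adjusted p = 0.00073). Sars, the seryl-tRNA synthetase, was at 8.01 and 8.04 under Tnfrsf1α-/- against 7.001 and 6.99 under Tnfrsf1β-/- (difference 1.03, limma adjusted p = 0.000516). Yars, the tyrosyl enzyme, was at 7.01 and 7.01 under Tnfrsf1α-/- against 6.07 and 6.12 under Tnfrsf1β-/- (difference 0.91). The methionyl and leucyl enzymes Mars and Lars rose by 0.75 and 0.72. The other 4 were not called, among them Vars and Qars, the member with the most negative difference at -0.21. With 1 of the 4 libraries left out, 13 to 16 members were called higher and at most 2 lower. Sars missed the threshold in the 10-library fit, with a limma adjusted p of 0.0595.

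**Figure D2:**
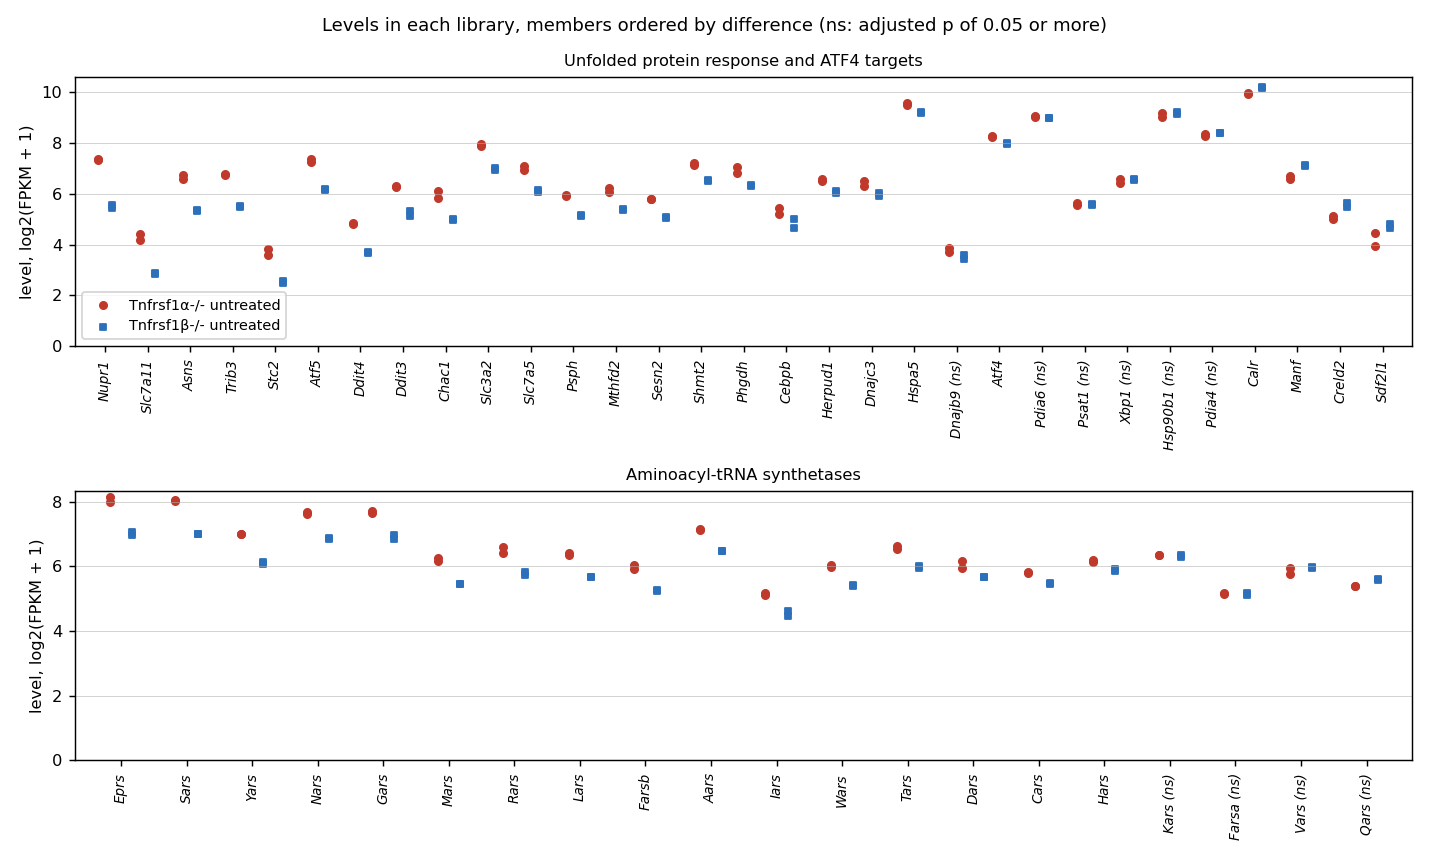
Levels (y axis, log2(FPKM + 1)) of unfolded protein response and ATF4 genes and of tRNA synthetases in each of the 4 libraries, with Tnfrsf1α-/- points left of Tnfrsf1β-/- points for each gene. Nupr1 at 7.35 and 7.33 under Tnfrsf1α-/- against 5.55 and 5.46 under Tnfrsf1β-/- and Sars at 8.01 and 8.04 under Tnfrsf1α-/- against 7.001 and 6.99 under Tnfrsf1β-/- are members whose libraries of a label lie close together. In others, such as Chac1, the Tnfrsf1α-/- libraries lie further apart.

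ATF4 binds DNA with C/EBP partners at a composite element, searched here as TGATGNAA on both strands in the 250 bases before each annotated start. It was found in 899 of 27457 promoters in the RefSeq table (3.27%) and in 147 of 8551 promoters of tested genes (1.72%). Among called members it was found in 4 of 21 promoters of unfolded protein response genes that rose and in 5 of 13 promoters of tRNA synthetases that rose (38.5%). Of the 93 genes called at least 2-fold higher, 60 had a promoter that could be searched, and 6 of these had a match. Of the 40 called at least 2-fold lower, 22 had such a promoter, and 1 had a match. Both lists hold genes that ATF4 is known to drive, so a high share is expected from the choice of list. No share was counted for members that were not called. The windows of 6 promoters with a match are shown because they belong to genes that rose together. Each is 60 bases of RefSeq sequence, 5′ to 3′ on the gene's strand, with the match in capitals. A match is a description of these letters and not a binding site. The tRNA synthetase genes carry RefSeq's current symbols Aars1, Mars1 and Tars1, which are Aars, Mars and Tars in the deposited table.
Nupr1, GRCr8 chr1:190645923-190645982, minus strand: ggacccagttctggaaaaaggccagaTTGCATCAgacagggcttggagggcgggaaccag
Trib3, GRCr8 chr3:161275534-161275593, minus strand: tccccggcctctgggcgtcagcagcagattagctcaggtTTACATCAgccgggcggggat
Chac1, GRCr8 chr3:126795938-126795997, plus strand: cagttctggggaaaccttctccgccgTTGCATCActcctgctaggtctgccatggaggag
Aars1, GRCr8 chr19:55908344-55908403, plus strand: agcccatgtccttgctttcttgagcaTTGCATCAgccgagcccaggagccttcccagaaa
Mars1, GRCr8 chr7:65023754-65023813, minus strand: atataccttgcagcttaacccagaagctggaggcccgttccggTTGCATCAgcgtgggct
Tars1, GRCr8 chr2:62114803-62114862, minus strand: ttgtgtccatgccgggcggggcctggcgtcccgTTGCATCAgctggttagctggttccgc

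Genes of cholesterol synthesis and uptake moved the other way. These genes are switched on together by SREBP2 when membrane sterol is low. Of 23 tested 17 fell and none rose, with a median difference of -0.53. Insig1, which holds the SREBP proteins in the endoplasmic reticulum, was at 5.10 and 4.90 under Tnfrsf1α-/- against 6.09 and 6.18 under Tnfrsf1β-/- (difference -1.14, limma adjusted p = 0.000877). Srebf2, the gene of SREBP2, was at 4.67 and 4.82 under Tnfrsf1α-/- against 5.48 and 5.49 under Tnfrsf1β-/- (difference -0.74). For both genes the Tnfrsf1α-/- libraries lay below those of the other label, as for every gene called lower. Dhcr7, a late enzyme of the pathway, fell by 1.01, and lanosterol synthase, Lss, fell by 0.79. Cyp51, Nsdhl and Pmvk, which also act in the pathway, were not called. The count of lower calls was 14 to 18 with 1 library left out.

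Fatty acid genes followed. Of 17 tested 9 fell and 1 rose, with a median difference of -0.33. Fasn, fatty acid synthase, was at 4.39 and 4.64 under Tnfrsf1α-/- against 5.61 and 5.59 under Tnfrsf1β-/- (difference -1.09, limma adjusted p = 0.00123). The desaturases Fads1 and Fads2 fell by 0.75 and 0.67, and Srebf1, the gene of the SREBP that drives this arm, fell by 0.72. Cpt1a, which brings fatty acids into mitochondria for oxidation and thus works opposite to synthesis, fell by 0.66. The 1 member that rose was the fatty acid binding protein Fabp5 (0.59), joined by 1 other without either Tnfrsf1α-/- library.

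DNA replication genes also fell. These include the MCM helicase that is loaded onto origins, the polymerases and the enzymes of nucleotide supply. Of 30 tested 23 fell and none rose, with a median difference of -0.54. Pole, the leading-strand polymerase, was at 2.98 and 2.98 under Tnfrsf1α-/- against 3.99 and 3.9996 under Tnfrsf1β-/- (difference -1.01, limma adjusted p = 0.000873). Cdt1, which loads the helicase, was at 3.79 and 3.84 under Tnfrsf1α-/- against 4.75 and 4.70 under Tnfrsf1β-/- (difference -0.91), and the helicase subunit Mcm2 at 5.05 and 5.29 under Tnfrsf1α-/- against 6.09 and 6.08 under Tnfrsf1β-/- (difference -0.92). In all 3 genes both Tnfrsf1α-/- libraries lay below both of the other label, as in every gene called lower. Tk1, thymidine kinase, was at 6.07 and 6.13 under Tnfrsf1α-/- against 6.92 and 6.87 under Tnfrsf1β-/- (difference -0.80). The subunits Mcm5 and Mcm3 fell by 0.77 and 0.67, and the sliding clamp Pcna by 0.34, a call lost without the first Tnfrsf1β-/- library (limma adjusted p = 0.162). With 1 library left out, 17 to 24 replication genes were called lower.

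Mitosis and spindle genes had fewer calls. Of 27 tested 12 fell and none rose, with a median difference of -0.27. Mki67, the proliferation marker Ki-67, was at 5.48 and 5.35 under Tnfrsf1α-/- against 6.02 and 6.04 under Tnfrsf1β-/- (difference -0.62, limma adjusted p = 0.00306), and Cdc20, an activator of the anaphase-promoting complex, differed by -0.61. The count of lower calls was 18 and 11 without the first or the second Tnfrsf1α-/- library, but 5 and 4 without the first or the second Tnfrsf1β-/- library.

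**Figure D3:**
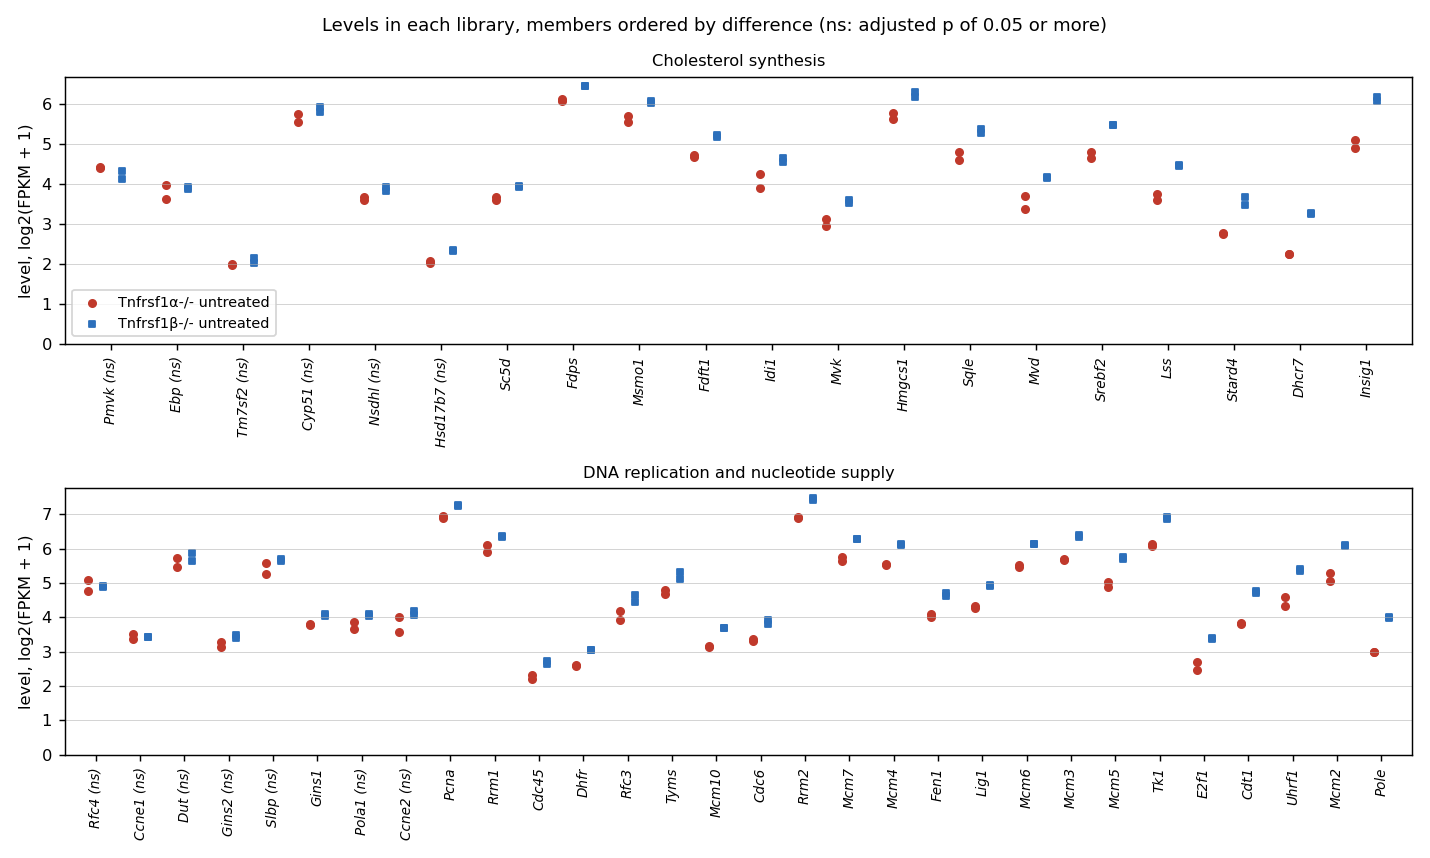
Levels (y axis, log2(FPKM + 1)) of cholesterol genes and DNA replication genes reported here in each of the 4 libraries, with Tnfrsf1α-/- points left of Tnfrsf1β-/- points for each gene. Insig1 at 5.10 and 4.90 under Tnfrsf1α-/- against 6.09 and 6.18 under Tnfrsf1β-/- and Pole at 2.98 and 2.98 under Tnfrsf1α-/- against 3.99 and 3.9996 under Tnfrsf1β-/- are examples of genes whose Tnfrsf1α-/- libraries both lie below both Tnfrsf1β-/- libraries. Every gene called lower has its labels apart in this way.

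Immediate early genes, which serum, growth factors or cytokines switch on within minutes through SRF, AP-1 and MAP kinases, were mostly lower. Of 32 tested 21 fell and 4 rose, with a median difference of -0.45. Nr4a1, an orphan nuclear receptor, was at 3.10 and 3.28 under the Tnfrsf1α-/- label, against 5.58 and 5.48 under the Tnfrsf1β-/- label, a difference of -2.34 (SE 0.09, limma adjusted p = 6.64e-05). No tested gene had a more negative difference. It also kept its call in the 10-library fit, with a limma adjusted p of 0.000384. Egr3, a zinc finger factor, was at 0.79 and 0.97 under Tnfrsf1α-/- against 2.45 and 2.20 under Tnfrsf1β-/- (difference -1.45). Zfp36, which marks cytokine messenger RNAs for decay, was at 5.93 and 6.13 under Tnfrsf1α-/- against 7.29 and 7.38 under Tnfrsf1β-/- (difference -1.30), and Klf2, a factor known for restraining inflammation in endothelium, at 5.65 and 5.95 under Tnfrsf1α-/- against 7.03 and 7.13 under Tnfrsf1β-/- (difference -1.28). All 3 had both Tnfrsf1α-/- libraries below both of the other label by more than 1 log2 unit.

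The best known members of the list had smaller differences. Egr1 fell by 0.30 and Fos by 0.23, and both calls were lost without either Tnfrsf1β-/- library, with limma adjusted p = 0.221 and 0.388 without the first. Junb fell by 0.70, and Jun and Atf3 were not called. Srf, the factor that many of these genes answer to, fell by 0.90, the growth arrest gene Btg2 by 0.91, the ERK phosphatase Dusp5 by 0.86 and the receptor tyrosine kinase inhibitor Spry4 by 0.997. The 4 members that rose were Myc, the growth factor-induced transcription factor, at 5.42 and 5.47 under Tnfrsf1α-/- against 4.64 and 4.65 under Tnfrsf1β-/- (difference 0.80), Spry2 (0.66) and the ERK phosphatases Dusp4 and Dusp6 (0.51 each). Feedback inhibitors of the ERK pathway thus stood on both sides.

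SRF binds the CArG box, a run of A and T letters between paired C and paired G letters, which was searched in the same 250 bases. It was found in 412 of 27457 promoters (1.5%) and in 96 of 8551 promoters of tested genes (1.12%). Of the 93 genes called at least 2-fold higher, 60 had a promoter that could be searched, and 0 of these had the box. Of the 40 called at least 2-fold lower, 22 had such a promoter, and 1 had the box. Many immediate early genes are known to answer to SRF, so a high share is expected from the choice of list. No share was counted for members that were not called. Among immediate early genes that fell, 6 of 16 promoters had the box (37.5%). The windows of 3 of those 6 promoters are printed as before, since Egr2, Srf and Zfp36 were lower together, and the capitals mark the box, of which Srf has 2.
Egr2, GRCr8 chr20:21054490-21054549, minus strand: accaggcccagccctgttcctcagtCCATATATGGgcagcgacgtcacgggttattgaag
Srf, GRCr8 chr9:21923990-21924049, plus strand: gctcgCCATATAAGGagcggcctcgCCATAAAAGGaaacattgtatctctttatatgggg
Zfp36, GRCr8 chr1:92799109-92799168, minus strand: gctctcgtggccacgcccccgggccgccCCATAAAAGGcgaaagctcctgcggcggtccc

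Cytokines were higher under the Tnfrsf1α-/- label. Of 14 tested cytokines, colony-stimulating factors and their antagonists 8 rose and 1 fell, with a median difference of 0.56. Il23a, the p19 chain of interleukin 23, was at 4.79 and 4.78 under Tnfrsf1α-/- against 1.997 and 2.11 under Tnfrsf1β-/-, a difference of 2.73 (SE 0.09, limma adjusted p = 3.38e-05), and it kept its call in the 10-library fit with an adjusted p of 3.5e-05. Csf2, the granulocyte and macrophage colony-stimulating factor, was at 7.0 and 6.98 under Tnfrsf1α-/- against 5.46 and 5.49 under Tnfrsf1β-/- (difference 1.51, limma adjusted p = 0.000145). Il6, the interleukin that drives the hepatic acute phase response, was at 2.20 and 2.52 under Tnfrsf1α-/- against 1.11 and 1.29 under Tnfrsf1β-/- (difference 1.16, limma adjusted p = 0.00306). In these 3 genes both Tnfrsf1α-/- libraries stood above both of the other label, as in every gene called higher. Il10, an anti-inflammatory cytokine, was at 2.54 and 1.99 under Tnfrsf1α-/- against 1.02 and 0.52 under Tnfrsf1β-/-, without overlap but with a wide gap inside each label (difference 1.498). Outside the list, and named among the genes that rose most, Il24 was at 2.89 and 2.84 under Tnfrsf1α-/- against 1.01 and 0.86 under Tnfrsf1β-/- (difference 1.93) and Il19 at 5.87 and 5.66 under Tnfrsf1α-/- against 4.08 and 3.93 under Tnfrsf1β-/- (difference 1.76), both members of the interleukin 10 family. The interleukin 1 receptor antagonist Il1rn rose by 0.66 and the granulocyte factor Csf3 by 0.69. The 1 member that fell was the macrophage factor Csf1 (-0.22), a call lost without either Tnfrsf1β-/- library, where its limma adjusted p was 0.337 without the first.

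Other NF-kB outputs did not move as 1 group, and their counts stand beside 15.8% called higher and 15.1% called lower over all tested genes. Chemokines, which draw leukocytes, had 3 members higher and 2 lower of 12 tested. Cxcl11 rose by 0.81 and Cxcl12 fell by 0.48, while Ccl2 was not called (difference 0.08). Higher chemokine calls were 1 without the first Tnfrsf1β-/- library and 5 without the second Tnfrsf1α-/- library, and lower calls were 2 without the second Tnfrsf1α-/- library and 1 without any one of the other libraries. Among 20 tested feedback inhibitors and targets of NF-kB, 3 rose and 5 fell. Lcn2, an iron-binding acute phase protein, was at 5.12 and 5.25 under Tnfrsf1α-/- against 3.89 and 3.98 under Tnfrsf1β-/- (difference 1.25, limma adjusted p = 0.000543), and the hyaluronan-binding Tnfaip6 rose by 0.98. Nfkbia, the inhibitor IkB-alpha, was at 6.28 and 6.43 under Tnfrsf1α-/- against 7.01 and 7.07 under Tnfrsf1β-/- (difference -0.68). Vcam1, an adhesion molecule, was at 2.27 and 2.17 under Tnfrsf1α-/- against 3.12 and 3.12 under Tnfrsf1β-/- (difference -0.90). The ribonuclease Zc3h12a, which degrades cytokine messenger RNAs, fell by 0.66. Lower calls on this list were 9 without the second Tnfrsf1α-/- library and 3 without either Tnfrsf1β-/- library, and higher calls 5 without the first Tnfrsf1α-/- library. Of 11 tested genes in the list of NF-kB subunits and IkB kinases 2 fell, Rela (-0.43) and Rel (-0.30), and neither kept its call without the first Tnfrsf1β-/- library, where their limma adjusted p was 0.0801 and 0.228.

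**Figure D4:**
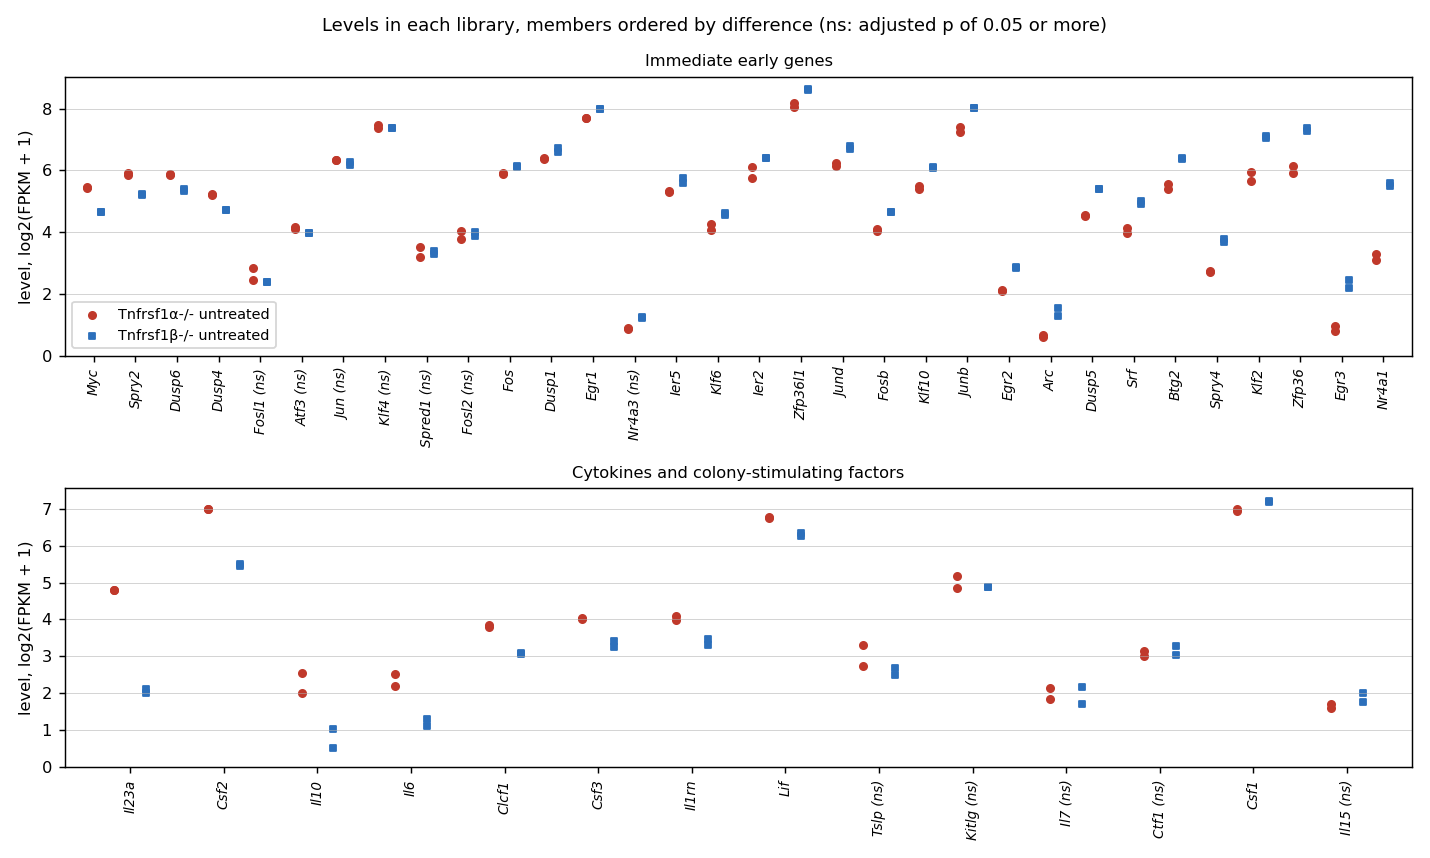
Levels (y axis, log2(FPKM + 1)) of immediate early genes and of cytokines in each of the 4 libraries, with Tnfrsf1α-/- points left of Tnfrsf1β-/- points for each gene. Nr4a1 at 3.10 and 3.28 under Tnfrsf1α-/- against 5.58 and 5.48 under Tnfrsf1β-/- and Il23a at 4.79 and 4.78 under Tnfrsf1α-/- against 1.997 and 2.11 under Tnfrsf1β-/- are the widest gaps in their lists.

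In the TNF system, the list of ligands and receptors had a share of calls near that of all genes. Of 13 tested ligands and receptors of the superfamily 2 rose and 2 fell, around a median of 0.024, beside 30.9% called over all tested genes. Tnfsf18, the ligand of GITR, fell by 0.68, and Tnfsf12, which encodes TWEAK, fell by 0.41. The TWEAK receptor Tnfrsf12a rose by 0.44 and the death receptor Fas by 0.35. The calls of Tnfsf12, Tnfrsf12a and Fas were lost without the first Tnfrsf1β-/- library, with limma adjusted p = 0.13, 0.054 and 0.136. Of 24 tested adaptors and death signalling genes 3 fell and 1 rose, a smaller share than over all genes. Among them Traf3, a ubiquitin ligase that restrains alternative NF-kB signalling, differed by -0.51 and Fadd, the adaptor of the death domain, by -0.45. The 1 higher call there was lost without either Tnfrsf1β-/- library and became 4 without the second Tnfrsf1α-/- library.

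Antigen processing genes were lower. Of 17 tested 10 fell and 1 rose, with a median difference of -0.38 and 7 to 11 lower calls with 1 library left out. Tapbp, or tapasin, which loads peptide onto MHC class I, was at 5.62 and 5.74 under Tnfrsf1α-/- against 6.63 and 6.57 under Tnfrsf1β-/- (difference -0.92, limma adjusted p = 0.00108). The immunoproteasome subunits Psmb10 and Psmb9 fell by 0.73 and 0.66. The rat class I genes RT1-A2 and RT1-A1 differed by -0.82 and -0.49, but class I genes are near copies of each other and reads may be split between them. B2m, the shared light chain, was not called (-0.25). Of 27 tested interferon-stimulated genes 9 fell and 4 rose, with a median of -0.20. Oas2 and Oasl, of the family that senses double-stranded RNA, fell by 0.68 and 0.54. Lower calls on the interferon list were 11 and 14 without the first or the second Tnfrsf1α-/- library and 3 without either Tnfrsf1β-/- library, where the 4 higher calls fell to 0. The 1 higher call among antigen processing genes, the class I-like RT1-M3-1 (0.35), remained only without the second Tnfrsf1α-/- library.

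**Figure D5:**
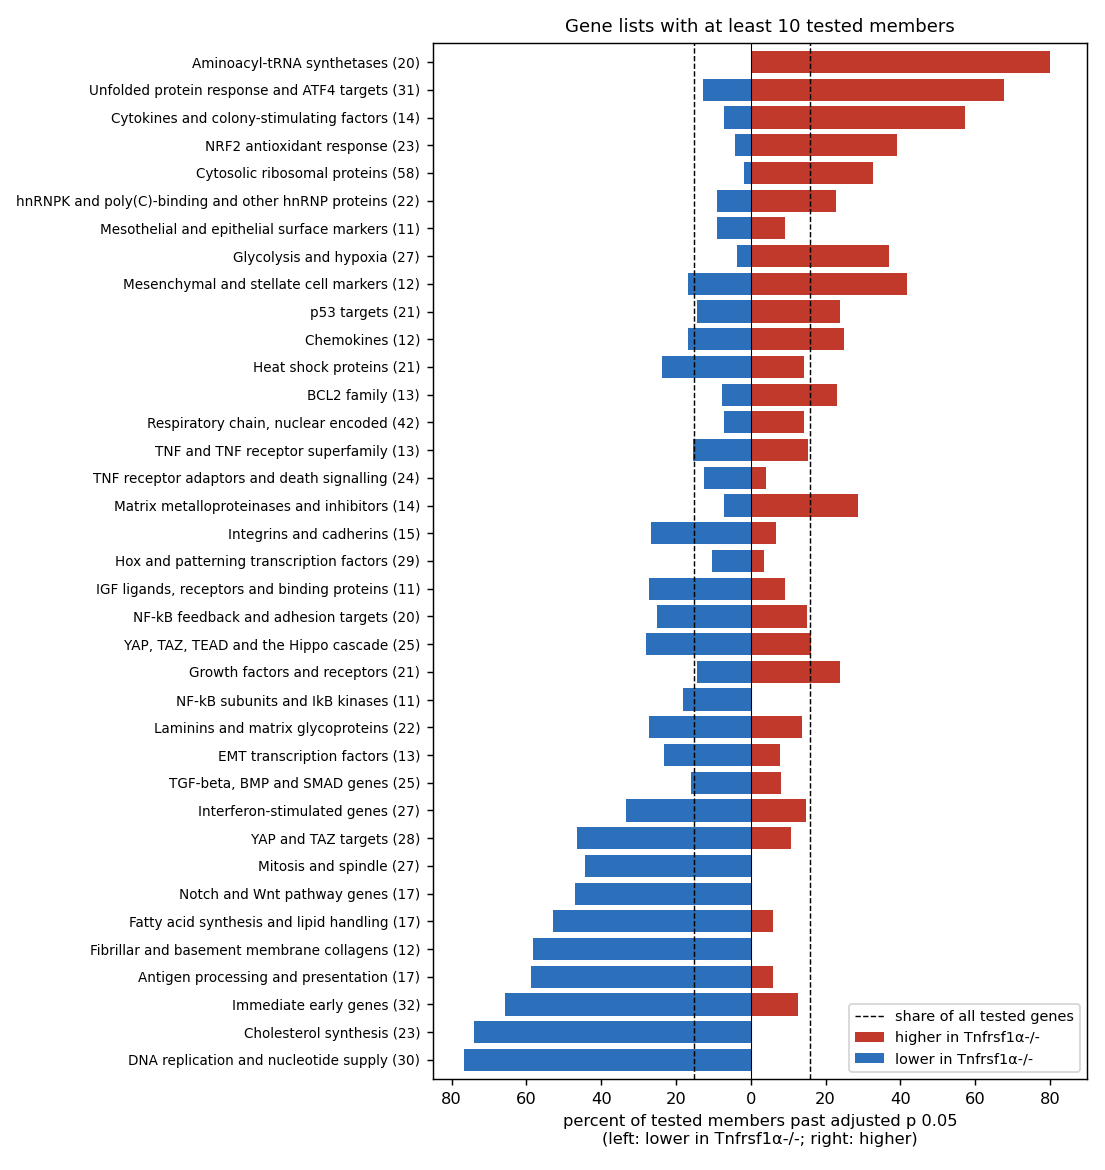
Share of tested members (x axis, percent) called higher under the Tnfrsf1α-/- label (right) or lower (left) for each gene list with at least 10 tested members, ordered by the list's median difference, with dashed lines at 15.8% and 15.1%, the shares over all tested genes. The tRNA synthetases and the unfolded protein response list lie at the upper end, and cholesterol and DNA replication genes, with no higher call among 23 and 30 members, at the lower end.

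Matrix genes were lower as well. Of 12 tested collagens 7 fell and none rose, with a median difference of -0.36 and 5 to 8 lower calls with 1 library left out. Col12a1, a collagen that decorates fibrils, was at 2.71 and 2.76 under Tnfrsf1α-/- against 3.77 and 3.86 under Tnfrsf1β-/- (difference -1.08), and Col5a1, which starts fibrils, at 6.72 and 6.90 under Tnfrsf1α-/- against 7.69 and 7.75 under Tnfrsf1β-/- (difference -0.91). Among the abundant fibrillar chains Col1a1 was at 9.85 and 10.11 under Tnfrsf1α-/- against 10.62 and 10.57 under Tnfrsf1β-/- (difference -0.62) and Col3a1 at 7.61 and 7.64 under Tnfrsf1α-/- against 8.24 and 8.28 under Tnfrsf1β-/- (difference -0.64). The 4 genes had both Tnfrsf1α-/- libraries on the lower side, as a called gene here always has its labels apart. Of 22 laminins, matrix glycoproteins and crosslinking enzymes 6 fell and 3 rose, led by Lama5, a basement membrane laminin chain, at 5.79 and 6.11 under Tnfrsf1α-/- against 6.99 and 6.98 under Tnfrsf1β-/- (difference -1.04). Lower calls in that list were 9 without the second Tnfrsf1α-/- library and 3 without either Tnfrsf1β-/- library, which also left 1 higher call.

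Mesenchymal genes were called in both directions, more often higher. Of 12 tested 5 rose and 2 fell, with a median difference of 0.10. The shares over all tested genes were 15.8% higher and 15.1% lower. Dcn, the collagen-binding proteoglycan decorin, was at 4.16 and 4.04 under Tnfrsf1α-/- against 1.85 and 2.04 under Tnfrsf1β-/- (difference 2.15, limma adjusted p = 0.000158). Acta2, the smooth muscle actin of activated stellate cells, was at 6.67 and 6.98 under Tnfrsf1α-/- against 7.97 and 7.87 under Tnfrsf1β-/- (difference -1.10, limma adjusted p = 0.00158). The 2 genes thus stood on opposite sides, beside a summed mesenchymal marker level that did overlap. Among 14 matrix proteases and their inhibitors 4 rose and 1 fell, beside 30.9% called in either direction over all tested genes. Plat, tissue plasminogen activator, rose, at 7.88 and 7.93 under Tnfrsf1α-/- against 7.10 and 7.08 under Tnfrsf1β-/- (difference 0.81). Timp1, a metalloproteinase inhibitor, rose by 0.59. Of 15 integrins and cadherins 4 fell and 1 rose, a share near the 30.9% called over all tested genes. Itga3, a laminin-binding integrin chain, was at a difference of -0.74. In that list 2 members were called lower without the first Tnfrsf1β-/- library, and higher calls were 3 without the second Tnfrsf1α-/- library and 0 without the second Tnfrsf1β-/- library. Mesenchymal calls were 3 higher without the first Tnfrsf1β-/- library and 4 lower without the second Tnfrsf1α-/- library.

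Hypoxia and oxidative stress genes leaned higher. Of 27 tested glycolysis and hypoxia genes 10 rose and 1 fell, with a median difference of 0.13 and 7 to 12 higher calls with 1 library left out. Vegfa, the endothelial growth factor that both hypoxia and ATF4 can induce, was at 6.79 and 6.81 under Tnfrsf1α-/- against 5.46 and 5.56 under Tnfrsf1β-/- (difference 1.29, limma adjusted p = 0.000325). Hif1a, the oxygen-regulated factor itself, was at 6.10 and 5.95 under Tnfrsf1α-/- against 5.21 and 5.31 under Tnfrsf1β-/- (difference 0.77), and hexokinase 2, Hk2, rose by 0.59. Adm, adrenomedullin, also a hypoxia target, fell by 0.85. Slc2a3, a glucose transporter, was listed at 0.00 in 1 library labelled Tnfrsf1α-/- and at 2.77 in the other, against 2.42 and 2.52 under Tnfrsf1β-/-, and was not called. Without the second Tnfrsf1α-/- library 6 members were called lower, and without either Tnfrsf1β-/- library 2.

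Of 23 tested NRF2 and metal response genes 9 rose and 1 fell, with a median of 0.25. Mt2A, a metallothionein, was at 4.78 and 4.94 under Tnfrsf1α-/- against 2.999 and 3.04 under Tnfrsf1β-/- (difference 1.84), and heme oxygenase Hmox1 at 5.85 and 5.94 under Tnfrsf1α-/- against 4.66 and 4.69 under Tnfrsf1β-/- (difference 1.22). Nfe2l2, the gene of NRF2, was at 7.503 and 7.27 under Tnfrsf1α-/- against 6.47 and 6.49 under Tnfrsf1β-/- (difference 0.91). Nqo1, a classical NRF2 target, was not called, and Osgin1 was the 1 that fell (-0.71). Higher calls on this list were 6 to 11 with 1 library left out, and lower calls were 4 without the second Tnfrsf1α-/- library.

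Of 21 tested p53 targets 5 rose and 3 fell, beside 15.8% higher and 15.1% lower over all tested genes. Gadd45a, a growth arrest gene that ATF4 also induces, was at 7.60 and 7.61 under Tnfrsf1α-/- against 5.87 and 5.84 under Tnfrsf1β-/- (difference 1.75, limma adjusted p = 6.64e-05), while its relative Gadd45g was at 5.32 and 5.69 under Tnfrsf1α-/- against 6.61 and 6.74 under Tnfrsf1β-/- (difference -1.16). The death gene Pmaip1 rose by 0.79. Cdkn1a, which encodes the cell cycle inhibitor p21 and is the most used readout of p53, was not called. Without the second Tnfrsf1α-/- library 8 were called higher and 6 lower.

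Notch and Wnt genes were lower where they were called. Of 17 tested 8 fell and none rose, with a median of -0.30 and 6 to 10 lower calls with 1 library left out. Hes1, the repressor that Notch switches on, was at 5.85 and 5.71 under Tnfrsf1α-/- against 7.31 and 7.37 under Tnfrsf1β-/- (difference -1.56, limma adjusted p = 0.000203), and it kept its call in the 10-library fit with an adjusted p of 0.00331. The Notch ligand genes Jag1 and Jag2 and the receptor Notch2 were also called lower. Among insulin-like growth factor genes 3 of 11 fell and 1 rose, around a median of -0.03, beside 30.9% called over all tested genes. The receptor Igf1r was at -0.76, and the count of higher calls changed with the library left out. Of 25 TGF-beta genes 4 fell and 2 rose, a smaller share than the 30.9% called over all tested genes. Smad6, an inhibitor of BMP signalling, fell by 0.74 and the ligand Bmp2 rose by 0.75, and lower calls there were 10 without the second Tnfrsf1α-/- library and 1 without either Tnfrsf1β-/- library, and higher calls were 4 without the second Tnfrsf1α-/- library.

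Ribosomal protein genes showed small differences, mostly upward. Of 58 tested lines 19 rose and 1 fell, with a median of 0.18. Over all tested genes 30.9% were called, 15.8% higher and 15.1% lower. Rpl26, a protein of the large subunit, was at 8.94 and 9.10 under Tnfrsf1α-/- against 8.42 and 8.36 under Tnfrsf1β-/- (difference 0.63), and Rpl23 rose by 0.57. The count of higher calls was 25 without either Tnfrsf1α-/- library, 6 and 3 without the first or the second Tnfrsf1β-/- library, and 10 after quantile normalization, where 3 were lower. Lower calls were 5 without the second Tnfrsf1α-/- library. Processed copies of these genes are common, so reads may be split among them. Respiratory chain genes had a smaller share of calls than the 30.9% over all tested genes. Of 42 respiratory chain genes 6 rose and 3 fell, with 1 of each without either Tnfrsf1β-/- library and 11 lower without the second Tnfrsf1α-/- library.

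The remaining lists had calls in both directions, beside 15.8% higher and 15.1% lower over all tested genes. Of 21 tested lines of heat shock genes, with Hspa8 on 2 of them, 3 rose and 5 fell, with the small chaperone Hspb8 at a difference of 0.93, the chaperone Hspa4 at 0.77 and the crystallin Cryab at -0.58. Of 13 tested BCL2 family genes 3 rose and 1 fell, and of 13 transcription factors of epithelial to mesenchymal transition 1 rose and 3 fell. Of 21 tested growth factors and receptors 5 rose and 3 fell, and of 29 Hox and patterning factors 1 rose and 3 fell, with Gata6, a factor of early endoderm, at -0.51. Without the second Tnfrsf1α-/- library 7 heat shock lines and 5 patterning factors were called higher, and 7 growth factor genes, 5 transition factors and 3 patterning factors lower. Without the first Tnfrsf1β-/- library 3 heat shock lines were called lower, and 1 growth factor gene and 1 patterning factor. The lower BCL2 call and the higher transition factor call were lost without either Tnfrsf1β-/- library.

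Several of the widest differences fell outside the lists. Stbd1, which tethers glycogen, was at 3.59 and 3.74 under Tnfrsf1α-/- against 1.16 and 1.03 under Tnfrsf1β-/- (difference 2.57), and Angptl8, an inhibitor of lipoprotein lipase, at 3.97 and 4.07 under Tnfrsf1α-/- against 1.54 and 1.79 under Tnfrsf1β-/- (difference 2.35). Med22, a Mediator subunit, was at 2.0 and 2.17 under Tnfrsf1α-/-, against 0.00 in both libraries labelled Tnfrsf1β-/-, where it is listed at 0. Casp4, an inflammatory caspase, was at 6.42 and 6.22 under Tnfrsf1α-/- against 4.50 and 4.68 under Tnfrsf1β-/- (difference 1.73). Toward the lower side, Slc39a10, a zinc importer, was at 3.26 and 3.35 under Tnfrsf1α-/- against 4.82 and 4.80 under Tnfrsf1β-/- (difference -1.51), and Phlda1, a growth factor-induced gene, fell by 1.19. Csrnp1, an immediate early nuclear protein, was at 4.11 and 2.85 under Tnfrsf1α-/- against 5.36 and 5.41 under Tnfrsf1β-/-, with more than 1 log2 unit between the 2 libraries labelled Tnfrsf1α-/- (difference -1.91). Of the 93 genes at least 2-fold higher 22 belonged to a list, as did 15 of the 40 that were at least 2-fold lower.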

How the data were processed

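Total RNA was taken with Trizol from untreated rat hepatic progenitor cells and 1 ug was made into libraries with an Illumina TruSeq kit, per the labels' protocols. The authors deposited 1 table of log2 values, FPKM plus 1, for 12 libraries in 6 groups of 2, and the log2 scale is inferred from the values. No source used here gives the aligner, annotation or genome build. No column of the table was left unused (0), and no count was recovered from the values. Libraries were grouped by their labels. Of 22730 lines 346 had no symbol and 1835 shared a symbol with another line, of which 341 were tested.

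For the 11315 lines with a mean of at least 1 FPKM over the 4 libraries, limma 3.58.1 in R 4.3.3 fitted 2 group means with a trended prior, and p-values were adjusted by Benjamini-Hochberg over all of them. A gene was called at an adjusted p under 0.05. The fit was tested on simulated data. The exact permutation test of 2 against 2 libraries cannot go below p = 0.333, so none was used. Rat promoters came from RefSeq (GRCr8). Of 11315 tested genes 10384 (91.8%) matched a RefSeq gene name by symbol or synonym. Fewer had a promoter that could be searched, with 8551 promoters of tested genes. Genes named are those of the labels and title, the 20 highest and 20 lowest differences among calls without overlap, and up to 6 members per list by p plus its largest difference. Some genes that the rule selects are not reported here. Further members were named after their values were seen. The members and the 43 gene lists were chosen with earlier results of these data known. Alternatives were other pseudocounts, filters and normalizations, more libraries in the fit, a block on the replicate number, and leaving out each library.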

Additional observations from a re-analysis of the deposited data

How the results depend on the processing

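The count of 3493 called genes moved by more than 1.5 times under 4 kinds of alternative. It was 6 (5 higher under the Tnfrsf1α-/- label, 1 lower) with all 12 libraries in 6 group means, all 6 also at least 2-fold apart, and 66 (49 and 17), with 50 (37 and 13) at least 2-fold apart, over 10 libraries without the treated Tnfrsf1α-/- pair. The treated pair's wide spread enters the shared estimate in the first of these, and the cause of the second was not tested. With no filter on low values 2214 genes (1149 and 1065) were called. With 1 library left out the count ran from 1824 to 4825, with 928 to 2566 higher and 896 to 2259 lower. The lone library is then assumed to vary like the other label's pair. The count at least 2-fold apart, 133 (93 and 40), was 232 (142 and 90) with a pseudocount of 0.1 and 37 (30 and 7) with a pseudocount of 10, as that scale stretches or shrinks low genes, and 132 to 184 (99 to 109 higher, 33 to 75 lower) with 1 library left out. A filter of 5 FPKM, median-ratio scaling and quantile normalization left 3117, 3475 and 3480 calls. Quantile normalization turned the split to 1650 higher and 1830 lower. Same-numbered libraries did not deviate together (r = -0.165 across genes), so the numbers pair nothing: the fit with a replicate block called 3354 genes, and the crossed pairing, chosen after seeing the data, 4838. Of the 145 named genes that were called, 130 kept their call with each library left out, 21 in the 10-library fit and 2 in the 12-library fit, and 6 lost it under the block. Uncalled differences changed sign for Yap1 (-0.0086 after quantile normalization, and -0.0085 to 0.12 with 1 library left out), Ccl2 (-0.075 after quantile normalization) and Slc2a3 (-2.47 to 0.30 with 1 library left out). Depth is unknown, so no difference of a low gene can be weighed against counting error.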

Other observations

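Some values belong in no comparison above. A gene model, LOC108348298, was at 4.50 and 4.29 under the Tnfrsf1α-/- label and listed at 0 in both libraries labelled Tnfrsf1β-/-, and a second, LOC100911917, was at 1.94 and 2.12 under Tnfrsf1α-/- against 0 in both under Tnfrsf1β-/-. Both were among the 6 genes called with all 12 libraries in the fit, as were Egr3, Med22 and Stmn4. Both models and Med22 were also listed at 0 in both untreated wild-type libraries, and here they passed the filter only through the Tnfrsf1α-/- label. Values listed at 0 in both libraries of a group have no spread and may be failed estimates, so these calls in the 12-library fit add no support. Of the 133 genes at least 2-fold apart, 15 were gene models, 11 higher and 4 lower. Mir632, a microRNA precursor, was at 0.13 and 0.08 under the Tnfrsf1α-/- label, against 2.66 and 0.87 under the Tnfrsf1β-/- label, with the Tnfrsf1β-/- libraries more than 1 log2 unit apart. Untreated wild-type libraries had a summed FPKM of 1071530 and 1231670, more than either label compared here, so their levels are not set beside these as equals. Hnrnpk was at 7.24 and 6.55 in them.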
